A study of Mus musculus with 9 samples.

Results

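Expression of 9 genes of the Sonic hedgehog pathway was examined in mNS-5 neural stem cells (NSCs) after knockdown of Med12, a subunit of the Mediator kinase module. The genes were chosen by name: Disp1, Ptch1, Hhip, Boc, Smo, Sufu, Gli1, Gli2 and Gli3. They are read by 19 of the 45281 probes on the Illumina MouseWG-6 BeadChip, and 13 of these 19 probes, standing for 8 of the 9 genes, were bright enough to be tested. The mNS-5 line goes back to a single clone of NSCs derived from mouse embryonic stem cells and grows attached to the dish. Knockdown cells received 1 lentiviral shRNA to Med12 and control cells a non-silencing (NS) shRNA, so that an effect of this shRNA and an effect of Med12 loss cannot be told apart. All cultures of both groups were kept in 10 ng/ml FGF-2 and 10 ng/ml EGF, were selected in 600 ng/ml puromycin from the day after infection, and were harvested at 5.5 days. The 9 arrays fall into 3 numbered sets, with 1 control and 2 Med12 knockdown arrays in each. The 3 knockdown arrays labelled by set alone are termed the first series here, and the 3 with a repeat number the second series. What the repeat arrays are was not given in the sources used here. The methods of the study state 3 biological replicates per condition, so the repeat arrays may not be independent cultures. Each of the 9 arrays was counted as a sample here, and the p-values reflect the spread among arrays, part of which may be technical. With the knockdown arrays of a set averaged, 3 against 3, Disp1 (adjusted p = 0.0326) kept its call, while Hhip (0.0695) and all 6 other pathway genes named below as passing, Lrp2 (0.0609), Gpc3 (0.0725), Ift172 (0.127), Spop (0.124), Ulk3 (0.0675) and Hes1 (0.121), lost theirs.

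Hedgehog ligands are lipid-bound proteins that leave the cell producing them with the help of the transporter-like protein Disp1. They bind Ptch1, assisted by coreceptors such as Boc and Cdon, and so relieve its inhibition of Smo at the primary cilium. Smo signaling then frees the Gli transcription factors from Sufu. Gli1 and Gli2 act mainly as activators, whereas Gli3 is processed largely to a repressor, and Ptch1, Hhip and Gli1 are themselves standard transcriptional targets that report pathway activity. In the developing nervous system the pathway patterns the ventral neural tube and sustains progenitor proliferation, and Med12 is known as a Mediator subunit that Gli3 contacts. The comparison asks which of these genes differed in level between Med12 knockdown and NS control cells.

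Values are the deposited intensities on a linear scale, in the arbitrary units of the scanner after background subtraction, so they can be negative. Background noise, estimated from the negative values, had an SD of 10.3, and a probe was read as detected above 16.9, as 18654 to 18690 probes per array were. Only probes detected on 3 or more arrays were tested. Before log2 all values under 16 were raised to 16, which understates both the changes of dim genes and their spread among arrays. A dim gene can therefore pass with this floor and not with another. Med12 itself was 326 ± 51.2 (SD, n = 3) in NS control and 137 ± 26.6 (SD, n = 6) in knockdown cells (log2 fold change -1.26, limma adjusted p = 0.00447), with no overlap between the groups. That call was lost when only the first series was used (-1.23, adjusted p = 0.0599). Of 12 NSC markers with a probe, 9 were bright enough to test and 0 passed, with a summed intensity of 42369 to 43903 in NS control and 42695 to 45862 in knockdown cells, carried mostly by Slc1a3. The median log2 fold change of the 9 was -0.22. The largest falls were Hes5 at -1.71 (adjusted p = 0.0978), Fabp7 at -0.50 (adjusted p = 0.170) and Vim at -0.40 (adjusted p = 0.196). Vim did not overlap between the groups. Slc1a3 (0.21), Sox9 (0.19), Prom1 (0.058) and Sox2 (0.00054) lay above 0. Nes, Sox2, Sox9, Slc1a3 and Vim were bright in both groups, while Sox1, Msi1 and Pax6 were not above the limit on 3 arrays. Pax6 was above it on 2 of 3 control and 0 of 6 knockdown arrays, with means of 22.3 and 6.6, and was not tested. Astrocyte markers were low in NS control cells. The 4 tested of 5 had a summed intensity of 168 to 263 in NS control and 306 to 793 in knockdown cells. That sum was carried mostly by S100b, whose groups overlapped (90.2 to 220.3 in NS control and 219.7 to 603.2 in knockdown cells). Of the 4, 0 passed (S100b 1.12, adjusted p = 0.0881, Aldh1l1 1.04, adjusted p = 0.0509, and Aqp4 0.22, adjusted p = 0.867, on the log2 scale). Gfap, the defining astrocyte marker, was above the limit on 1 of 3 control and 5 of 6 knockdown arrays (0.68, adjusted p = 0.119), and Gjb6 was not above it on 3 arrays. Of the 8 neuronal markers only Map2 (0.33, adjusted p = 0.165) and Dcx (0.96, adjusted p = 0.136) could be tested, and 0 passed. Their summed intensity, carried by Map2, was 5217 to 6194 in NS control and 6337 to 8092 in knockdown cells without overlap. Dcx was above the limit on 1 of 3 control and 6 of 6 knockdown arrays. The others were not above it on 3 arrays. Of these, Neurod1 averaged 20.0 in NS control and 3.4 in knockdown cells, and Snap25 16.1 and -0.17. Tubb3, Rbfox3, Stmn2 and Syt1 averaged near 0 in both groups. The part of such shifts in the results below was not tested, and in RNA from whole cultures fewer cells of a type and less RNA per cell cannot be told apart.

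Across the 8 hedgehog genes tested, Disp1 was higher and Hhip was lower in Med12 knockdown cells, and the other 6 did not pass an adjusted p of 0.05. Ptch1, the pathway's receptor and a target of it, was 1.45-fold higher on average but did not pass (adjusted p = 0.0972). Smo and Gli3 lay near 0 on the log2 scale, and Gli1 was not detected on any array. One gene higher and 1 lower of 8 stand beside 5.40% higher and 2.87% lower among all 10757 genes tested, or 8.27% in either direction. Of the 13 probes, 1 was higher and 1 lower, beside 4.35% and 2.85% of the 20026 probes tested. The median log2 fold change of the 8 genes, each by its brightest probe, was 0.037, beside -0.0020 for all genes. Knockdown and control arrays did not overlap for 2 of the 8 genes, Disp1 and Hhip, beside 19.1% of all genes.

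**Figure D1:**
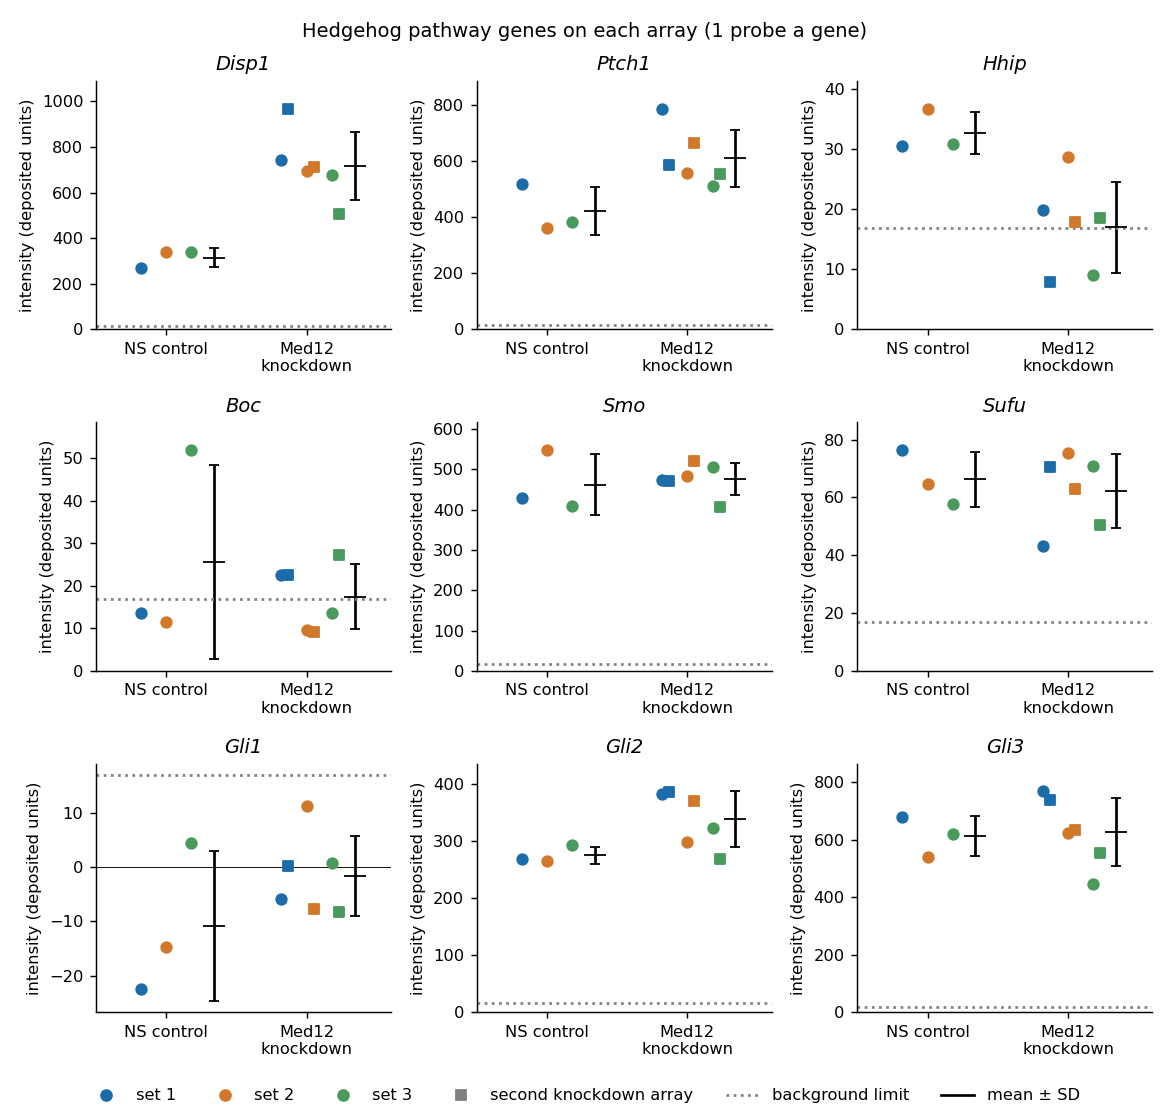
Intensity (deposited units, linear axis) of 1 probe per gene on each array, with circles for the first and squares for the second array of a group in a set, colors for the 3 sets, bars for mean ± SD (n = 3 NS control and n = 6 knockdown arrays) and a dotted line at the background limit of 16.9. The 6 knockdown arrays lie above all 3 control arrays for Disp1 and below them for Hhip, which is close to the limit, and Gli1 lies under the limit on all 9 arrays.

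The bases upstream of the transcription start are shown for Disp1, Ptch1 and Hhip, which had the largest log2 fold changes by their brightest probes. Of these Ptch1 did not pass. Ptch1 and Hhip are textbook Gli targets while Disp1 is not. Sequences are those of RefSeq on mouse build GRCm38.p6, 250 bases immediately before each annotated start, written 5' to 3' on the strand of the gene, with each GC box (GGGCGG, or CCGCCC on the other strand) in capitals.
Disp1, first start, chr1:183221530-183221779, minus strand: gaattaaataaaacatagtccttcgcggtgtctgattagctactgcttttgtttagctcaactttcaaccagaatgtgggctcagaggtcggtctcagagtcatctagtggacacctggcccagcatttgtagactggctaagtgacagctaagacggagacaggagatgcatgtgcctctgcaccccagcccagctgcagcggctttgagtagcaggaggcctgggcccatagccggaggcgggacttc
Disp1, second start, chr1:183147558-183147807, minus strand: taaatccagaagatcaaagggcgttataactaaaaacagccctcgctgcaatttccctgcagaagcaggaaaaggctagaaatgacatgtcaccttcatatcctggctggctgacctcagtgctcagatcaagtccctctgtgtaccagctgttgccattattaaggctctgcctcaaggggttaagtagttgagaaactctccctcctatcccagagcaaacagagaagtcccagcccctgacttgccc
Ptch1, chr13:63565736-63565985, minus strand: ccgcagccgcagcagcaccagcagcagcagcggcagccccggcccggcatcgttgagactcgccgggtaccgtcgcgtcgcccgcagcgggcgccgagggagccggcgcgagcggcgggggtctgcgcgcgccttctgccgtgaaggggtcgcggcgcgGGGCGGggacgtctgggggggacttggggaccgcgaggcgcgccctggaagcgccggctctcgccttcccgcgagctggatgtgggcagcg
Hhip, chr8:80058009-80058258, minus strand: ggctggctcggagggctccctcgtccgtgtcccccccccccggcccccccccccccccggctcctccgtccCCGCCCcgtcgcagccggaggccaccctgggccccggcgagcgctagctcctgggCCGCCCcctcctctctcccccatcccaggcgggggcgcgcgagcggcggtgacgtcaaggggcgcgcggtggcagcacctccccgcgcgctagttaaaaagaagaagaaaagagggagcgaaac
The Gli consensus GACCACCCA, searched on both strands as GACCACCCA or TGGGTGGTC, had 0 matches in these windows, also when 1 mismatch was allowed. It is rare in windows of this length: 0.225% of the 32851 windows of the table hold it exactly, and 5.79% with at most 1 mismatch. GC boxes are common, in 32.7% of windows, and Ptch1 had 1 and Hhip 2, whereas both Disp1 windows had 0. The Ptch1 window held 41 CpG dinucleotides at 78.4% GC and the Hhip window 28 at 76.0% GC, against a median of 6 CpG over all windows. The Disp1 windows held 7 at 53.2% GC and 2 at 48.8% GC. Windows for Smo, Gli2, Gli3 and Sufu also had 0 Gli matches, with 0, 1, 2 and 1 GC boxes and 15, 22, 34 and 8 CpG, and the entries for Gli1 and Boc are missing. A window without these letters says nothing about distant Gli sites.

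Disp1, which releases the lipid-bound ligand from the cells that make it, had the largest change of the 8 genes tested. Its probe (NM_026866) read 268, 338 and 339.6 in NS control replicates 1 to 3. In knockdown cells it read 743, 693 and 677 in sets 1 to 3 of the first series, against 969, 714 and 505 in the second. The lowest knockdown array, in set 3, was thus above the highest control array. The mean was 315 ± 41.2 (SD, n = 3) in control and 717 ± 149 (SD, n = 6) in knockdown cells, a difference of 1.17 on the log2 scale (2.25-fold, standard error 0.19, 95% interval 0.74 to 1.60), with an adjusted p of 0.00732 from limma. Within the sets the difference was 1.66, 1.06 and 0.78 on the log2 scale, positive in each and larger in set 1 than in set 3. By log2 fold change it ranked 273 among the 10757 genes, and 2.79% of all genes were higher by 2-fold or more at this threshold. Leaving out any single array kept the call, at 1.05 to 1.26 and adjusted p values up to 0.0346, and without all of set 1 the value was 0.92 (adjusted p = 0.0487). The call was lost with the second knockdown series alone (1.17, adjusted p = 0.0785), and with the knockdown arrays of a set averaged and the set as a block (1.17, adjusted p = 0.0666).

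Ptch1, the receptor that binds the ligand and holds Smo inactive, has a pair of probes to the same transcript, NM_008957. The bright probe read 518.5, 362 and 382 in NS control replicates 1 to 3. In knockdown cells it read 787, 556 and 512 in the first series, against 584, 665 and 554.5 in the second. The groups overlapped, since NS control replicate 1 lay above the lowest knockdown array, in set 3. The log2 fold change was 0.54 (standard error 0.18, 95% interval 0.14 to 0.93, adjusted p = 0.0972 from limma), and the difference had the same sign in every set, at 0.39, 0.75 and 0.48. With the set number as a replicate block the adjusted p was 0.0480, but with the block and the 2 knockdown arrays of a set averaged it was 0.118, and the call was lost again. The second probe was dim, at 11.1 to 52.3 across the 9 arrays, and gave 0.074 with an interval of -0.85 to 0.99 (adjusted p = 0.936), which includes the value of the bright probe.

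Hhip, a membrane protein that binds and sequesters hedgehog ligands, was dim in all cells. Its probe (NM_020259) read 30.5, 36.7 and 30.8 in NS control replicates 1 to 3. In knockdown cells it read 19.8, 28.6 and 9.1 in the first series, against 7.9, 17.8 and 18.5 in the second. It was above the limit on 3 of 3 control and 4 of 6 knockdown arrays, and the highest knockdown value, in set 2, lay just under the lowest control value. The log2 fold change was -0.77 (standard error 0.19, 95% interval -1.20 to -0.34, adjusted p = 0.0406 from limma), with -0.78, -0.70 and -0.84 within the sets. The gap between the groups was small beside the background SD of 10.3. The call was lost in 18 of 24 alternatives, among them leaving out any single array other than knockdown set 2 of the first series (adjusted p of 0.0605 to 0.136), and with values below 32 set to 32 the log2 fold change was -0.066.

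**Figure D2:**
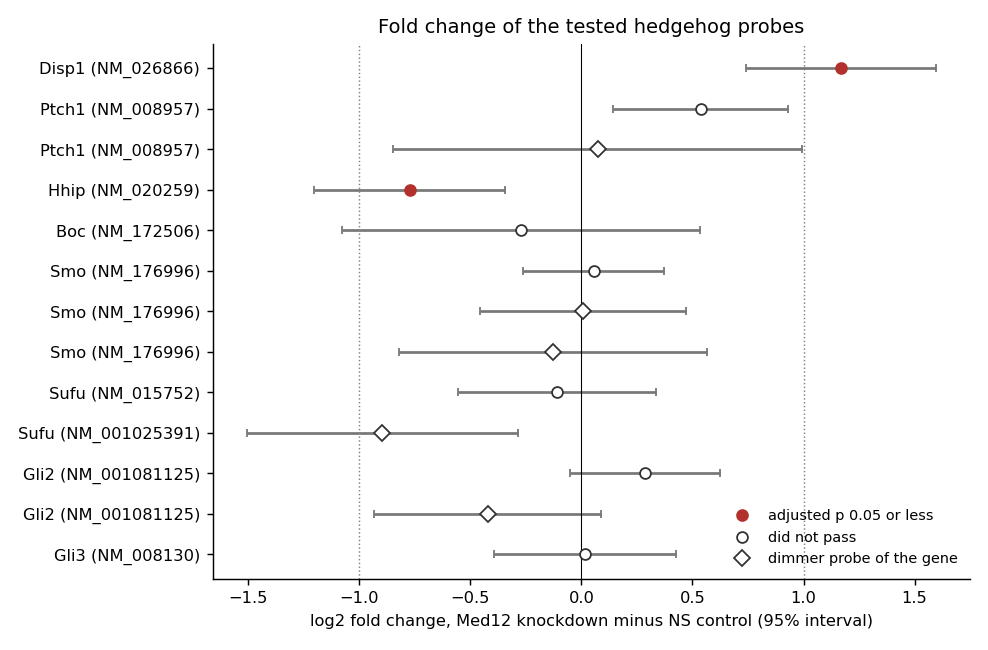
Log2 fold change of each of the 13 tested probes (knockdown minus NS control, n = 6 and n = 3 arrays) with its 95% interval from limma, filled where the adjusted p was 0.05 or less, diamonds for the dimmer probes of a gene and dotted lines at 2-fold. The intervals of Disp1, Hhip, the bright Ptch1 probe and the NM_001025391 probe of Sufu exclude 0, and only the first 2 of these passed after adjustment.

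The other membrane components did not pass. Smo, the signal transducer that Ptch1 inhibits, read 428, 548 and 408 in NS control replicates 1 to 3 on its brightest probe, and 406 to 521 in knockdown cells with a median of 478. The groups overlapped, and the log2 fold change was 0.056 (95% interval -0.26 to 0.37, adjusted p = 0.852). A further pair of probes to the same transcript, NM_176996, gave 0.0092 (adjusted p = 0.985) and -0.13 (adjusted p = 0.844), and its remaining probe, to AK053708, was above the limit on 2 arrays and was not tested. Boc, a coreceptor that presents the ligand to Ptch1, was at background on most arrays. Its probe to NM_172506 was above the limit on 1 of 3 control and 3 of 6 knockdown arrays, at 13.5, 11.5 and 51.9 in NS control and 9.1 to 27.2 in knockdown cells. It gave -0.27 (95% interval -1.08 to 0.53, adjusted p = 0.694), and without NS control replicate 3 the value was 0.29 (adjusted p = 0.565), so that it has no settled direction.

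Sufu, the cytoplasmic protein that restrains Gli factors, has 4 probes. Its brightest, to NM_015752, read 76.4, 64.7 and 57.7 in NS control and 43.1 to 75.3 in knockdown cells, with a log2 fold change of -0.11 (95% interval -0.56 to 0.34, adjusted p = 0.781). A dimmer probe, to the transcript NM_001025391, read 44.4, 46.5 and 27.2 in NS control replicates 1 to 3. In knockdown cells it read 1.7, 16.5 and 28.9 in the first series, against 9.9, 30.9 and 20.2 in the second. The groups overlapped, 3 of the 6 knockdown arrays were under the limit, and the log2 fold change of -0.90 (95% interval -1.50 to -0.29) did not pass (adjusted p = 0.0786). Within the sets it was -1.47, -1.04 and -0.17. The difference between these 2 transcripts was not tested, and the other 2 Sufu probes were above the limit on 1 and 2 arrays.

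None of the Gli factors passed. Gli1, whose transcription follows pathway activity, was above the limit on 0 of 9 arrays: it read -22.4, -14.7 and 4.4 in NS control and -8.2 to 11.3 in knockdown cells, so no fold can be given. Gli2, the main activator downstream of Smo, read 268, 266 and 293 in NS control replicates 1 to 3 on its bright probe, and 383, 299 and 323.5 in the first knockdown series, against 386, 371 and 269.7 in the second. Only the set 3 array of the second series lay within the control range, and the log2 fold change was 0.29 (95% interval -0.053 to 0.62, adjusted p = 0.291). The second Gli2 probe, to the same transcript NM_001081125, pointed the other way, with -0.42 (95% interval -0.93 to 0.090, adjusted p = 0.302), and the mean of both gave -0.068 (adjusted p = 0.803). Gli3, the main repressor form in neural tissue, read 678, 539.7 and 620.4 in NS control replicates 1 to 3. In knockdown cells it read 768, 623 and 447.5 in the first series, against 739, 633 and 553 in the second, so that the knockdown arrays reached above and below the controls. Its log2 fold change was 0.018 (95% interval -0.39 to 0.43, adjusted p = 0.967). The arrays measure Gli3 mRNA, and not its processing to the repressor form. Its dimmer probe was above the limit on 1 array.

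**Figure D3:**
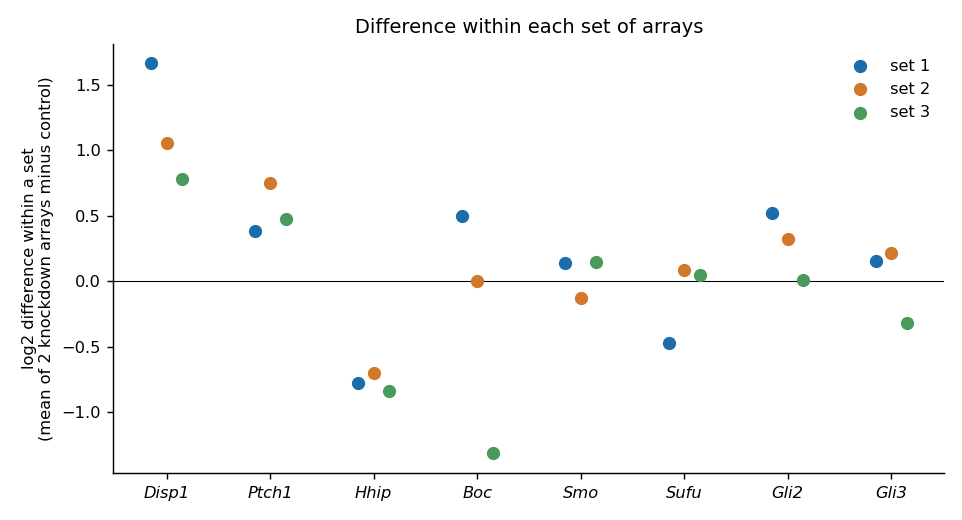
Difference within each of the 3 sets (log2 scale, mean of the 2 knockdown arrays minus the NS control array of the set) for the brightest probe of each of the 8 tested genes. All 3 sets lie above 0 for Disp1, Ptch1 and Gli2 (0.012 in set 3) and below 0 for Hhip, Boc ranges from -1.31 in set 3 to 0.50 in set 1, and the Smo, Sufu and Gli3 values lie on both sides of 0.

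The rest of the pathway was read from 6 lists of 106 symbols in all, older symbols of 3 genes (Adrbk1, Skp1a and Foxf1a) included, of which 96 had a probe and 73 could be tested. Without the 9 genes above, 65 were tested, of which 4 were higher, 2 were lower and 59 did not pass, with a median of 0.056 on the log2 scale beside -0.0020 for all genes. These 4 and 2 of 65 stand beside the 5.40% higher and 2.87% lower among all genes. With the set number as a replicate block 7 were higher and 2 lower, the additions being Prkar1a, Sfrp1 and Tulp3, which are named after their values were seen, because that count holds them. The blocked fit also called more of all probes, 1432 higher and 1082 lower of 20026, and with the block and the knockdown arrays of a set averaged only Lrp2 of these pathway genes passed.

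Among the ligands and the genes for their release, 3 of 9 could be tested and only Disp1 passed. The ligand genes Shh, Ihh and Dhh were not above the limit on 3 arrays in these cultures, nor were Disp2, Scube1 and Scube2. Of the receptors and coreceptors 7 of 9 were tested, with 2 higher, 1 lower and 4 not passing. Beside the counts of both lists, 5.40% of all genes tested were higher and 2.87% lower. Lrp2, the large endocytic receptor megalin that binds Shh in the forebrain, had the largest rise of the lists. It read 47, 20.8 and 18.1 in NS control replicates 1 to 3. In knockdown cells it read 142.6, 71.6 and 79.7 in the first series, against 141, 113 and 65.8 in the second. The lowest knockdown array was above the highest control array, where 19.1% of all genes had no overlap in either direction. The log2 fold change was 1.90 (standard error 0.35, adjusted p = 0.0128 from limma). The call was lost without NS control replicate 2 (1.74, adjusted p = 0.0605) or replicate 3 (1.64, adjusted p = 0.0651), and with 50 added before log2 the value was 0.94. Gpc3, a glypican that competes with Ptch1 for ligand, averaged 83.8 ± 11.8 (SD, n = 3) in control and 152 ± 31.1 (SD, n = 6) in knockdown cells without overlap, a difference of 0.84 on the log2 scale (adjusted p = 0.0288), and its call was lost without any 1 control array or without knockdown set 1 of the first or set 2 of the second series (adjusted p of 0.0524 to 0.111). Cdon, the coreceptor related to Boc, read 242, 171 and 169.7 in NS control replicates 1 to 3 and 219 to 452 in knockdown cells, with a log2 fold change of 0.59 that did not pass (95% interval 0.062 to 1.12, adjusted p = 0.163). The mean of its tested probes gave 0.15 (adjusted p = 0.586). The coreceptor Gas1 was not above the limit on 3 arrays.

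**Figure D4:**
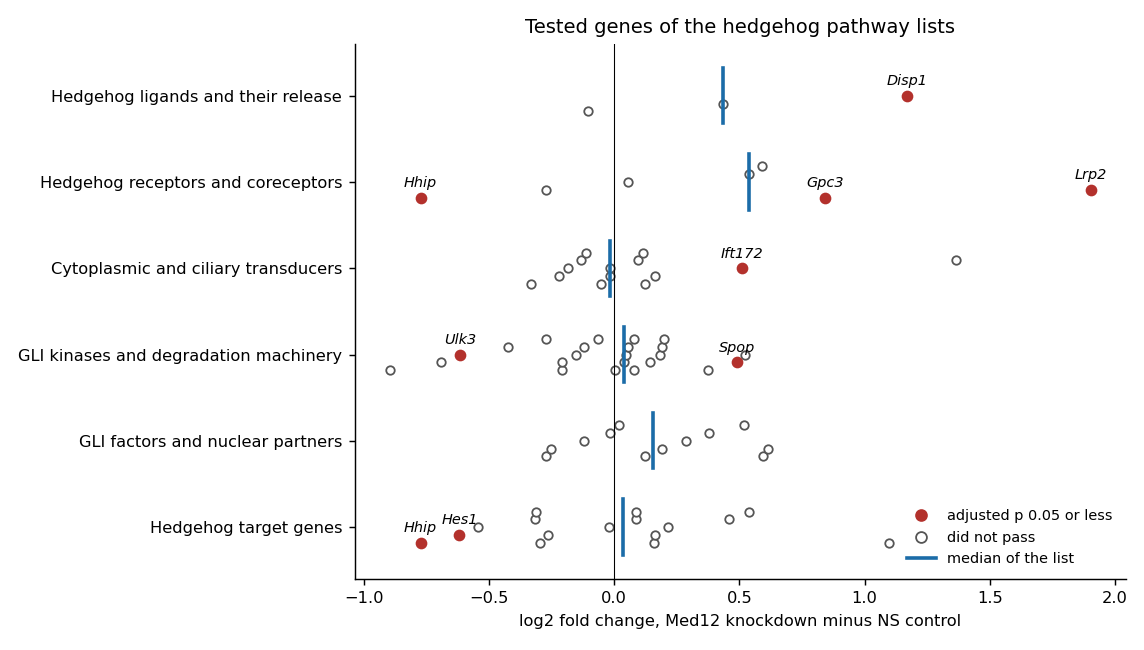
Log2 fold change (knockdown minus NS control) of each tested gene of the 6 pathway lists, by its brightest probe, filled and named where the adjusted p was 0.05 or less, with a bar at each list's median. The largest rise is that of Lrp2 at 1.90, followed by Tulp3 at 1.36, which did not pass, and Disp1 at 1.17, and 12 of the 12 Gli and nuclear partner genes tested did not pass.

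Of the 22 symbols listed as cytoplasmic and ciliary transducers 14 were tested and 1 was higher, beside 5.40% of all genes tested. Ift172, a subunit of the transport machinery of the primary cilium, averaged 469 ± 38.0 (SD, n = 3) in control and 668 ± 60.9 (SD, n = 6) in knockdown cells, a difference of 0.51 on the log2 scale (adjusted p = 0.0450). This call was lost with any 1 of the 9 arrays left out (adjusted p of 0.0510 to 0.159). It was also lost with the mean of the tested Ift172 probes, which gave 0.38 (adjusted p = 0.182). The kinesin Kif7 and the ciliary receptor Gpr161, negative regulators of the pathway, were not above the limit on 3 arrays. Of the 26 symbols listed as kinases and degradation genes 23 were tested, with 1 higher and 1 lower, beside 5.40% and 2.87% of all genes. Spop, the adaptor that marks Gli2 and Gli3 for degradation, averaged 4120 ± 196 (SD, n = 3) in control and 5800 ± 497 (SD, n = 6) in knockdown cells, a difference of 0.49 on the log2 scale (adjusted p = 0.0430), a call that was likewise lost with any 1 array left out (adjusted p of 0.0545 to 0.124). Ulk3, a kinase that acts on Gli factors, averaged 191 ± 4.68 (SD, n = 3) in control and 125 ± 11.4 (SD, n = 6) in knockdown cells, a difference of -0.61 on the log2 scale (adjusted p = 0.0199), a call lost without NS control replicate 1, 2 or 3 (adjusted p of 0.0594, 0.0590 and 0.0754). No group overlap was seen for these 3 genes, which were named because they passed, beside 19.1% of all genes without overlap.

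Of the 30 symbols listed as hedgehog targets, 16 were tested, with a median of 0.034 on the log2 scale. Of these 16, 0 were higher and 2 lower, beside 5.40% higher and 2.87% lower among all genes tested. Besides Hhip this was Hes1, better known as a Notch target, which averaged 970.0 ± 179 (SD, n = 3) in control and 626 ± 50.5 (SD, n = 6) in knockdown cells, a difference of -0.62 on the log2 scale (adjusted p = 0.0361). Its call was lost without NS control replicate 1 (adjusted p = 0.123) or replicate 3 (adjusted p = 0.129), and without any knockdown array other than set 1 of the first series (adjusted p of 0.0501 to 0.0711). Hes5, also a Notch target and listed as an NSC marker, read 309, 62.8 and 108.5 in NS control and 14.9 to 72.4 in knockdown cells (log2 fold change -1.71, adjusted p = 0.0978, 0.0156 with the set as a replicate block, and 0.0608 with the block and the knockdown arrays of a set averaged). Among the cell cycle targets, Ccnd1 gave 0.16 (adjusted p = 0.535) and Ccnd2 0.089 (adjusted p = 0.915), and Mycn was not above the limit on 3 arrays. Ptch1 and Hhip, the standard reporters that could be tested, had log2 fold changes of opposite sign. Ptch1 did not pass, however, and Hhip lay near the background limit and lost its call in 18 of 24 alternatives.

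**Figure D5:**
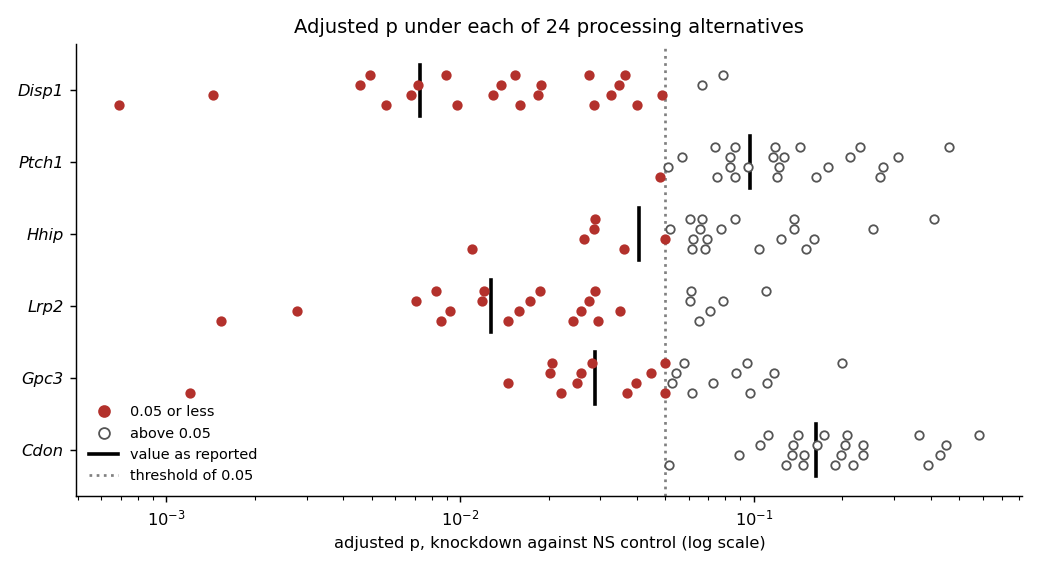
Adjusted p (log axis) of 6 genes under each of 24 alternative ways of processing the data, filled at 0.05 or less, with a black bar for the value as reported and a dotted line at 0.05. Disp1 passed in 22 of 24, Lrp2 in 18, Gpc3 in 13, Hhip in 6, Ptch1 in 1 and Cdon in 0.

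The genes whose intensities over the 9 arrays were most like those of each hedgehog gene were ranked by Pearson r on the log2 scale, as a description over arrays that share 2 groups and 3 sets. For Disp1 these were Spop (r = 0.99 over 9 arrays and 0.92 over the 6 knockdown arrays), Plcd1 (0.98 and 0.86) and Pitpnc1 (0.98 and 0.90). Spop is itself one of the pathway genes that rose. For Ptch1 they were Zbtb41 (0.96 and 0.97), Adgrb3 and Sgcb (both 0.96 over 9 arrays), and for Hhip Mitf (0.97 and 0.94), Wdfy1 and Zfp948 (both 0.96 over 9 arrays). The nearest were Nlgn2 (0.96), Gatad2b and Pcnx (both 0.94) for Gli2, Efcab2 (0.96), Vezf1 and Flrt3 (both 0.94) for Gli3, and Nol6 (0.97), Sae1 (0.93) and Lrpprc (0.90) for Smo. They were Srpr (0.91), Rps29 and Rffl (both 0.89) for Sufu, and Mgp (0.95), Urah (0.95) and Slc25a28 (0.94) for Boc. No hedgehog gene was among the 3 nearest of another. With 3 places per gene among 10757 genes this is likely in any case, so no conclusion is drawn from it.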

How the data were processed

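RNA of mNS-5 NSCs was hybridized to Illumina MouseWG-6 arrays. The authors exported linear intensity values from GenomeStudio (no version given in the sources used here) after background subtraction and quantile normalization, and deposited these. The non-normalized signals were left out, because the names of their 18 per-sample columns could not be tied to the samples. By the platform annotation 34885 probes had a single symbol. Another 18 had several and 10378 had none in that table.

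The tests used limma 3.58.1 (lmFit, eBayes) under R 4.3.3, on log2 intensities with values below 16 set to 16. They were two-sided, and p-values were adjusted by Benjamini-Hochberg over the 20026 probes above the limit of 16.9 on at least 3 arrays. To set that limit, values below 0 were mirrored about 0 and the intensity at a one-sided p of 0.05 was taken. A gene was read from its brightest kept probe. The members and the pathway and marker lists were chosen with earlier results of these data known. Every member and every passing list gene is named, with Shh, Cdon, Gas1, Kif7 and Gpr161 whatever their value, and the 3 genes most like each member. An item of that rule is not reported here. The deviation of a set's control array from its group mean correlated with the mean deviation of the knockdown arrays of that set (0.32, 0.17 and 0.15 in sets 1 to 3). By closest match in the other group, the first-series knockdown arrays of sets 2 and 3 matched a control of another set. All other arrays matched an array of their own set. The labels do not say what a set is, so the fit reported here has no set term. The set entered as a block only in alternatives. Between the knockdown arrays of a set the correlations of these deviations were 0.22, -0.072 and 0.015. Deviations from the mean of the same 6 arrays correlate below 0 where arrays are unrelated. Values near 0 therefore do not show a lack of likeness. On simulated data for this comparison over 20026 probes, 64% of 100 probes changed 2-fold and 96% of 100 changed 4-fold were recovered, with 8 false calls. Alternatives covered the floor, the filter, the rows of the fit, the set block, the second knockdown series, array weights, the prior and each array left out. The number of arrays limits the precision. Promoter windows were read from RefSeq on GRCm38.p6. Plots were made in Python 3.11.15 (matplotlib 3.10.9).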

Additional observations from a re-analysis of the deposited data

Results flagged for a closer look

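Of 26 probes checked, those of the hedgehog genes, of selected pathway genes and of Med12, Cdk19 and Hes5, 2 had 1 knockdown array far from the other 5 by Dixon's criterion for 6 samples (gap over range above 0.625), a criterion that chance meets in about 1 in 20 groups. Hhip read 28.6 in set 2 of the first knockdown series, and the other knockdown arrays lay between 7.9 and 19.8. Its gap over range of 0.633 was taken on log2 values after the floor of 16, which raised the readings of 7.9 and 9.1. The floor thus shortened the range, and the gap was not taken on the values as deposited. Without the set 2 array of the first series the Hhip log2 fold change was -0.89 (adjusted p = 0.0110 from limma). Ccnd2 read 1160 in set 3 of the first knockdown series, with a gap over range of 0.762, against 3118 to 4246 on the other knockdown arrays. Without it the log2 fold change was 0.37, and the gene did not pass in any of the 24 alternatives.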

How the results depend on the processing

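Disp1 passed in 22 of 24 alternatives (log2 fold change 0.92 to 1.26) and Hhip kept its sign in all 24 but passed in 6. Leaving out 1 array at a time gave 1 hedgehog gene higher throughout, 0 to 1 lower, 0 to 3 other pathway genes higher and 0 to 2 lower, and 359 to 836 probes higher and 173 to 559 lower of the 872 and 570 reported. Values below 1 set to 1 gave 0 hedgehog genes lower and 367 probes lower. Values below 32 set to 32, 50 added before log2, array weights and a prior with trend and robust estimation each gave 0 hedgehog genes lower. Without a filter on dim probes 0 hedgehog genes were lower, 2 other pathway genes were higher and 1 lower, and 415 probes were higher and 269 lower.

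With the set number as a replicate block 2 hedgehog genes (Disp1 and Ptch1) and 7 other pathway genes were higher, and 1432 probes were higher and 1082 lower. Beside Ptch1, Prkar1a, Sfrp1 and Tulp3, the block changed no other call among the hedgehog and pathway genes. With the knockdown arrays of a set averaged, 0 hedgehog genes were lower, 1 other pathway gene was higher and 0 lower, and 322 probes were higher and 168 lower. With the first knockdown series alone 0 hedgehog genes were lower, 0 other pathway genes were higher or lower, 132 probes were higher and 55 lower, and Med12 gave -1.23 (adjusted p = 0.0599). With the second series alone 0 hedgehog genes were higher, 0 other pathway genes were higher or lower, and 262 probes were higher and 121 lower.

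A pair of alternatives was added after seeing the data. Without all of set 1, 0 hedgehog genes were lower, 2 other pathway genes were higher and 0 lower, and 492 probes were higher and 242 lower. With the set number as a replicate block and the knockdown arrays of a set averaged, 0 hedgehog genes were higher or lower, 1 other pathway gene was higher and 0 lower, 320 probes were higher and 126 lower, and Med12 gave -1.26 (adjusted p = 0.0517).

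Genes near 0 changed sign without passing. The mean of a gene's probes gave -0.021 for Smo and -0.068 for Gli2. Gli3 gave -0.028 with the first series alone, -0.00090 with array weights and -0.050 without set 1, Sufu gave 0.070 without set 1, and Ccnd1 -0.033 without set 1. Ccnd2 gave -0.14 with the first series alone and -0.31 without set 1. The dim Ptch1 probe gave -0.12 with values below 32 set to 32, -0.17 with the second series alone, -0.038 with array weights and -0.45 without set 1. The dimmer Smo probes gave 0.15 with the first series alone and 0.060 without set 1, and -0.13 with the second series alone. With 1 array left out the values ranged from -0.026 to 0.19 for Smo, -0.071 to 0.11 for Gli3, -0.56 to 0.29 for Boc, -0.25 to 0.61 for the dim Ptch1 probe, -0.43 to 0.14 and -0.18 to 0.18 for the dimmer Smo probes, and -0.11 to 0.37 for Ccnd2. The cause of these changes was not tested. Normexp on the non-normalized signals was not run. Hhip, Boc and Gli1 lay near the background limit, where these arrays resolve little.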
